A study of Homo sapiens with 12 samples.

Results

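The genes described here encode the ligands by which a target cell activates natural killer (NK) cells: MICA, MICB, ULBP1, ULBP2 and ULBP3 for the receptor NKG2D, PVR and NECTIN2 for DNAM-1, and NCR3LG1 for NKp30. These 8 members were chosen by symbol from the 28278 genes of the count table. Their measured values were not part of the rule, but earlier results of these data were known. The filter on low counts kept 15805 genes, 7 of these members among them. ULBP3 did not pass, with 41 counts over all libraries and at most 17 in a library.

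NKG2D is an activating receptor of NK cells and of some T cells, and its ligands are relatives of MHC class I proteins that many cells display only under stress, viral infection or transformation. DNAM-1 binds PVR and NECTIN2, adhesion proteins of the nectin family that are also bound by the inhibitory receptor TIGIT, while NKp30 binds B7-H6, the product of NCR3LG1. An NK cell weighs such signals against inhibitory ones from HLA class I, which K562 cells are known to lack at their surface, and for that reason K562 is the usual target in NK killing assays. Inhibitors of histone deacetylases, of which butyrate is one, are known to alter transcripts of several of these ligands in tumour cells. The data are transcript counts, and surface protein was not measured.

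RNA sequencing covered K562, a human erythroleukaemia cell line, in 4 groups of 3 libraries. WT cells and cells labelled HRG1-KO (here KO), lacking the heme transporter encoded by SLC48A1, were either left without treatment or given 0.75 mM sodium butyrate. Butyrate was added 24 h after plating and again 48 h later, cells were collected 6 h after the second addition, and the series design places collection at day 8 of differentiation without relating that day to these hours. The labels state neither how the knockout was made, nor the number of KO clones, nor whether WT cells passed through the same steps, so clone and genotype cannot be told apart. They also do not say that replicates were separate cultures, so p-values measure only the spread between these libraries.

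Library totals ranged from 19963594 to 30348538 counts. SLC48A1 lay between 58.9 and 83.8 CPM (library-scaled counts, with TMM factors) in the WT libraries and between 2.94 and 10.1 CPM in the KO libraries. All 9 erythroid markers exceeded 1 CPM in every library, summing to 5770 to 12000 CPM for untreated WT, 15900 to 33400 for treated WT, 3510 to 6180 for untreated KO and 4220 to 5950 for treated KO. Libraries numbered 1 stood apart under butyrate. On the second principal component, which carried 20.9% of the variance, replicate 1 of treated WT lay at 40.9 and replicate 1 of treated KO at 4.22, whereas the other treated libraries lay between -84.8 and -74.3 and the untreated ones between 15.3 and 75.6. Butyrate results are therefore also given without the libraries numbered 1 where a call or direction changes. In bulk RNA, fewer cells expressing a gene and less of its RNA per cell cannot be told apart.

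The members lie in 4 places of the genome (GRCh38, GENCODE release 29). MICA (chr6:31399784-31415315) and MICB (chr6:31494881-31511124) are close paralogs on the plus strand of the MHC region. ULBP2 (chr6:149942000-149949235) and ULBP1 (chr6:149964007-149973710), both on the plus strand, and ULBP3 (chr6:150063150-150069095, minus strand) form a second cluster on chromosome 6. PVR (chr19:44643798-44663583) and NECTIN2 (chr19:44846175-44889228) are neighbours on the plus strand of chromosome 19. NCR3LG1 (chr11:17351726-17377341, plus strand) stands alone on chromosome 11.

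Upstream sequences of 5 members are shown, of the 4 genes called higher in treated KO cells and of ULBP1, which was not. This choice rests on results of these data, and a relation of sequence to the calls was not tested. The sequences come from RefSeq (GRCh38.p14, plus strand, 5′ to 3′), and all 8 members matched its promoter table. The RefSeq start used for the promoter lies inside the GENCODE gene span for MICA, MICB, PVR and NECTIN2, but not for ULBP1. Each sequence is the part of the 250 bases before that start that no annotated exon covers, at chr6:31403345-31403578 for MICA, chr6:31497895-31498085 for MICB, chr19:44643660-44643797 for PVR, chr19:44846047-44846174 for NECTIN2 and chr6:149963693-149963942 for ULBP1. Capitals mark GGGCGG, the core of the GC box bound by Sp1-family factors, read on either strand.
MICA: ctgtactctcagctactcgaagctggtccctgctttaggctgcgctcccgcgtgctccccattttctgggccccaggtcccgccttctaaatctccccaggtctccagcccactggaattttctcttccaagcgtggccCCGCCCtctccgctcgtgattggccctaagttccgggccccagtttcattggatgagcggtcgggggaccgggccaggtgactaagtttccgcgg
MICB: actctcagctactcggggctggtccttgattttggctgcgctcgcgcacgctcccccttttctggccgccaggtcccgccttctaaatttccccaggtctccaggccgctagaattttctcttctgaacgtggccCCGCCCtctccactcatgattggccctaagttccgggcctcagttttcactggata
PVR: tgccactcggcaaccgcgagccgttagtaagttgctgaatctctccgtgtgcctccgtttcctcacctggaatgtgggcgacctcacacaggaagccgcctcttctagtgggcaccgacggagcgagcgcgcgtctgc
NECTIN2: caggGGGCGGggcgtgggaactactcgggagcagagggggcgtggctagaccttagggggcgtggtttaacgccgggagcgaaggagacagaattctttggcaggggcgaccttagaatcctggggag
ULBP1: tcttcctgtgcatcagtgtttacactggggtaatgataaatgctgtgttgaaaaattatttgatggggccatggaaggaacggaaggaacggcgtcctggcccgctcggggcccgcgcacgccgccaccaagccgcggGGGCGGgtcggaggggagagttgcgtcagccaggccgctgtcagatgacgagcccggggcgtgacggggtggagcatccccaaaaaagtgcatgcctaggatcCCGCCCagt

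The MICA and MICB windows were nearly alike, with 210 identical bases of 246 aligned (85.4%), and each held 1 GGGCGG, at 111 and 115 bases before the start. Aligned the same way, the other pairs of members had 50.2% to 70.0% identical bases. Among them, pairs of MICA, MICB, PVR and NECTIN2 had 54.6% to 64.4%, and ULBP1 had 58.6% to 60.2% with these genes. PVR held no GGGCGG in its whole window of 250 bases, ULBP1 held 2, at 112 and 9 bases before the start, NECTIN2 held 3 in its whole window, and ULBP3 held 6. The letters GGGCGG occurred on either strand in 42.6% of 35116 promoter windows of that length. Heat-shock (TTCNNGAA), CRE (TGACGTCA), ATF4-type (TGATGNAA) and E-box (CACGTG) letters were searched on both strands too. They occurred in 6.62%, 1.65%, 3.14% and 6.34% of all windows, but in none of the 8 members' windows. TTCNNGAA reads the same on both strands, so the heat-shock search covered TTC before GAA and not GAA before TTC. The MICA and MICB sequences shown both hold the order that was not searched, as gaattttc. How often that order occurs in all windows was not counted. These matches describe letters and say nothing of binding.

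Levels can be compared between genes only per length, here as mean CPM per kilobase of merged exons. On that scale MICB was highest in all 4 groups, followed by NECTIN2 and then MICA. In untreated WT the values were 39.0 for MICB, 21.6 for NECTIN2, 11.6 for MICA, 6.1 for NCR3LG1, 3.31 for ULBP1, 3.24 for PVR, 1.11 for ULBP2 and 0 for ULBP3. In treated KO cells PVR came next after MICA, at 26.5 against 32.5, while ULBP2 and ULBP1 stood at 0.86 and 0.719. The NKG2D ligand transcripts were thus mainly MICB and MICA, and the ULBP genes were a minor part in every group.

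**Figure D1:**
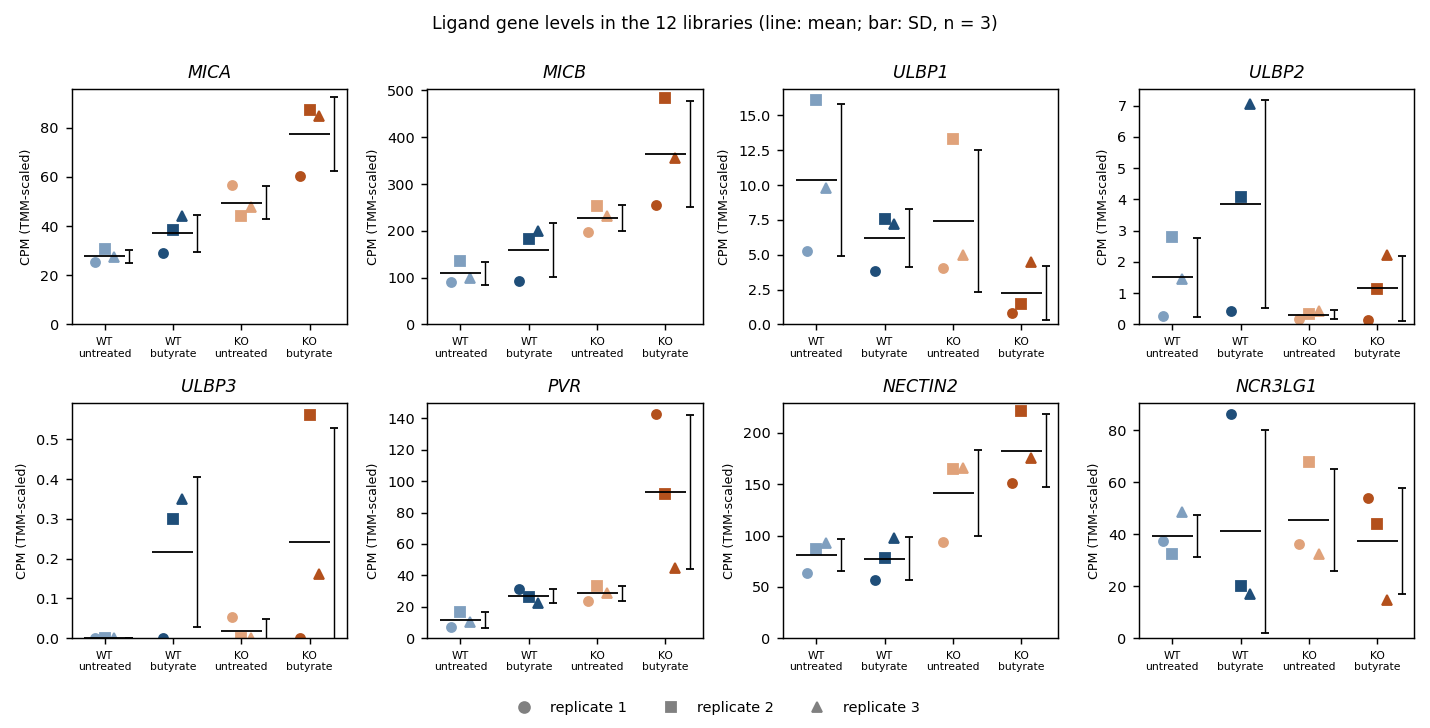
Level of each of the 8 ligand genes (vertical axis, TMM-scaled CPM, a separate linear scale per gene) in the 4 groups (horizontal axis), with 1 symbol per library and its shape giving the replicate number, a line at the mean and a bar of 1 SD (n = 3). MICA, MICB, PVR and NECTIN2 lie higher in KO than in WT cells of the same treatment, whereas ULBP1 does not and NCR3LG1 shows no order of the groups.

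KO cells carried more MICA and MICB transcripts than WT cells, without butyrate and with it. MICA, which encodes a stress-induced NKG2D ligand, stood at 25.3, 30.5 and 27.5 CPM in replicates 1, 2 and 3 of untreated WT and at 56.9, 44 and 47.6 CPM in untreated KO. With butyrate it stood at 29.1, 38.2 and 44 CPM in WT and at 60.3, 87.2 and 84.9 CPM in KO. Every KO library was above every WT library of the same treatment. The log2 fold change, KO against WT, was 0.84 (SE 0.21, 1.78-fold, adjusted p 0.0135, edgeR quasi-likelihood test with Benjamini-Hochberg adjustment over all tested genes) in untreated cells. In treated cells it was 1.06 (SE 0.21, 2.09-fold, adjusted p 0.00412). The call in untreated cells was lost without replicate 1 or 3 of untreated WT (0.78 and 0.81, edgeR adjusted p 0.0529 and 0.0548) and without replicate 1 of untreated KO (0.73, adjusted p 0.0566). In treated cells it was kept in all 12 fits that each left out 1 library.

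MICB, the paralog that binds the same receptor, followed the same order. Untreated WT libraries held 90.1, 136 and 100 CPM and untreated KO libraries 198, 252 and 231 CPM. Treated WT libraries held 92, 183 and 200 CPM and treated KO libraries 256, 483 and 355 CPM. Neither pair of genotypes overlapped, although replicate 1 of treated WT remained at the level of untreated WT. MICB rose 2.09-fold in untreated KO cells (log2 fold change 1.06, SE 0.31, adjusted p 0.0248) and 2.3-fold in treated ones (1.20, SE 0.31, adjusted p 0.0158, edgeR). With library size alone as the scaling the untreated edgeR adjusted p was 0.0594, and with only the treated groups in the fit the treated one was 0.0784. The untreated call was lost without replicate 1 or 3 of untreated WT (0.94 and 0.99, edgeR adjusted p 0.0908 and 0.097) as well as on leaving out replicate 2 or 3 of untreated KO (0.95 and 1.02, adjusted p 0.0916 and 0.0683). The treated call was lost without replicate 2 of treated KO (0.92, adjusted p 0.0819).

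Reads that cannot be told apart between the paralogs were few by sequence. Of all 50-base words in MICA exons, 2.64% also occurred in another gene, 1.89% in MICB, and of those in MICB 2.94% did. Summed over MICA and MICB, untreated WT had 137 ± 26.7 CPM and treated WT 195 ± 65.4, whereas untreated KO had 277 ± 20.5 and treated KO 442 ± 127 (SD, n = 3 each). The sum did not overlap between genotypes under either treatment, and 2-sided exact permutation tests gave p 0.1, the smallest value 3 libraries against 3 allow.

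PVR, which encodes the DNAM-1 ligand CD155, showed the largest rise of the called members in KO cells. Its level was 7.15, 16.9 and 9.98 CPM in untreated WT and 23.6, 33.1 and 29 CPM in untreated KO. Under butyrate it was 31.4, 26.4 and 22.3 CPM in WT and 143, 91.7 and 44.7 CPM in KO. The groups lay in the order untreated WT, then treated WT and untreated KO with overlapping ranges, then treated KO. PVR was 2.52-fold higher in untreated KO than in untreated WT (log2 fold change 1.33, SE 0.39, adjusted p 0.0279) and 3.49-fold higher in treated cells (1.81, SE 0.39, adjusted p 0.00686, edgeR). The untreated call was lost without replicate 1 or 3 of untreated WT (1.09 and 1.22, edgeR adjusted p 0.101 and 0.107) as well as on leaving out replicate 2 or 3 of untreated KO (1.19 and 1.29, adjusted p 0.0999 and 0.0705). The treated call was kept without any 1 library.

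NECTIN2, which encodes the second DNAM-1 ligand CD112, was higher in treated KO cells and narrowly missed the threshold in untreated ones. Untreated WT held 63.8, 86.9 and 92.6 CPM, untreated KO 93.5, 165 and 166 CPM, treated WT 56.3, 78.5 and 97.8 CPM, and treated KO 151, 221 and 176 CPM. The genotypes did not overlap in either setting, but the margin in untreated cells was narrow, because replicate 1 of untreated KO lay just above the highest untreated WT library. In treated cells NECTIN2 rose 2.35-fold (log2 fold change 1.23, SE 0.28, edgeR adjusted p 0.00788), also without any 1 library. In untreated cells the difference was 0.80 (SE 0.27, 95% interval 0.21 to 1.40, edgeR adjusted p 0.0518). With the replicate number as a block it was 0.78 (edgeR adjusted p 0.00334), and without the libraries numbered 1 it was 0.87 (adjusted p 0.00952). It also passed without replicate 1 of treated WT (0.78, adjusted p 0.0357) and without replicate 1 of untreated KO (1.03, adjusted p 0.0191).

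**Figure D2:**
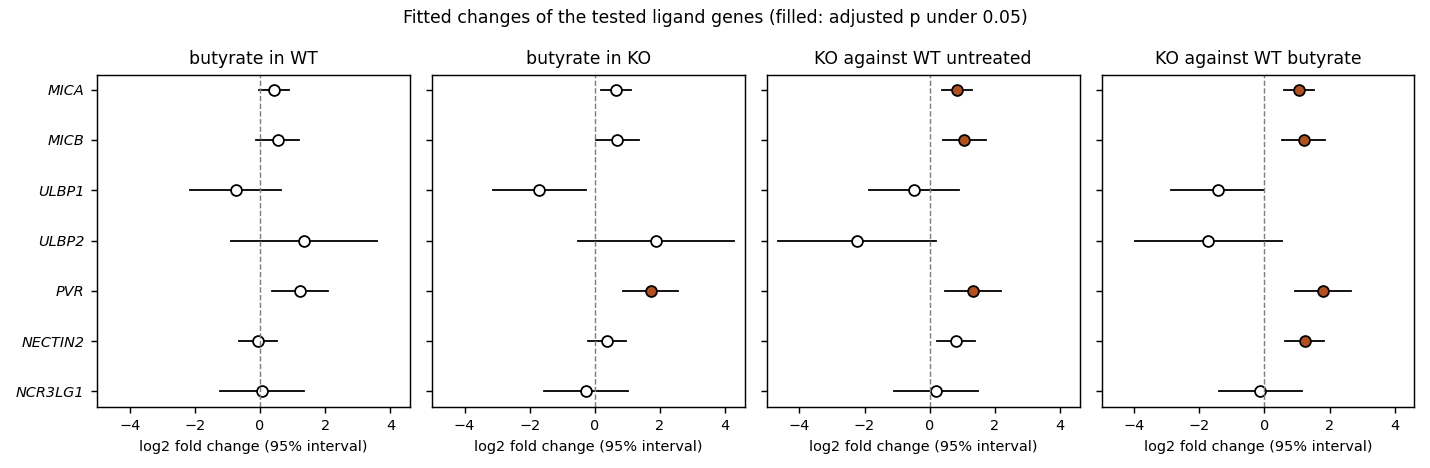
Fitted log2 fold change of the 7 tested members (horizontal axis, point) with its 95% interval (line) in the 4 contrasts between groups; filled points have an edgeR adjusted p under 0.05. MICA, MICB and PVR are filled in both genotype contrasts, NECTIN2 in treated cells, and PVR alone in the butyrate contrast of KO cells.

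Transcripts of the ULBP genes did not share this direction. ULBP1 encodes an NKG2D ligand anchored to the membrane by a lipid tail, and its level was 5.25, 16.1 and 9.81 CPM in untreated WT and 4.07, 13.3 and 4.95 CPM in untreated KO. In treated cells it was 3.83, 7.55 and 7.21 CPM in WT and 0.826, 1.49 and 4.48 CPM in KO. The genotypes overlapped in both settings, and in treated cells only replicate 3 of KO reached the WT range. KO differed from WT by -0.49 (95% interval -1.87 to 0.90, edgeR adjusted p 0.643) in untreated and by -1.44 (-2.87 to -0.02, adjusted p 0.152) in treated cells on the log2 scale. Blocked by replicate number, the treated difference was -1.53 with an edgeR adjusted p of 0.0308, and without replicate 3 of treated KO it was -2.42 (adjusted p 0.0351).

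ULBP2, another NKG2D ligand, was scarce. Untreated WT had 5, 60 and 43 counts, treated WT 8, 96 and 222, untreated KO 3, 7 and 13, and treated KO 3, 34 and 69. Replicate 1 was the lowest library of every group. In CPM, WT had 0.271, 2.78 and 1.45 untreated and 0.415, 4.09 and 7.05 treated, and KO had 0.16, 0.333 and 0.435 untreated and 0.138, 1.12 and 2.22 treated. The genotypes overlapped, and the difference of -2.24 (95% interval -4.66 to 0.18, edgeR adjusted p 0.178) in untreated cells and of -1.72 (-3.98 to 0.54, adjusted p 0.292) in treated cells did not pass. With the replicate number as a block, both passed (-2.12, edgeR adjusted p 0.0302, and -1.68, adjusted p 0.047), and both did without the libraries numbered 1 (-2.44 and -1.76, adjusted p 0.0159 and 0.0415). Of the 50-base words of ULBP2 exons, 32.2% occurred in another gene, 29.4% in RAET1L, so its counts are uncertain. RAET1L itself had at most 13 counts in a library.

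ULBP3, a further NKG2D ligand, had 0 counts in every untreated library but 1, a KO library with 1 count. It had 0, 7 and 11 counts in treated WT and 0, 17 and 5 counts in treated KO. The limit that a count of 0 allows is 3 counts, or 0.0953 to 0.162 CPM depending on the library, and it covers counting error only. ULBP3 exceeded 3 counts in replicates 2 and 3 of both treated groups and in no untreated library, a pattern too sparse for the fit across genes.

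NCR3LG1, which encodes the NKp30 ligand B7-H6, showed no difference between genotypes beyond its spread. It stood at 37.3, 32.4 and 48.3 CPM in untreated WT and at 36, 67.8 and 32.2 CPM in untreated KO, with a log2 difference of 0.20 (95% interval -1.08 to 1.49, edgeR adjusted p 0.849). In treated cells it stood at 86.2, 19.9 and 17.1 CPM in WT and at 53.8, 43.9 and 14.6 CPM in KO, with a difference of -0.13 (-1.41 to 1.15, adjusted p 0.914). The intervals span changes in both directions, so a difference of moderate size was not detectable at this spread.

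Of the 7 tested members, 3 (MICA, MICB and PVR) rose in untreated KO cells and none fell, where 22.6% of all tested genes were called, 11.7% higher and 10.9% lower. In treated cells 4 rose (those 3 and NECTIN2) and none fell, where 19% of all genes were called, 10.1% higher and 8.89% lower. The members' median log2 difference was 0.80 in untreated and 1.06 in treated cells, against 0.02 and 0 over all genes. MICA, MICB, PVR and NECTIN2 did not overlap between genotypes in either setting, a separation that 42.3% of all genes showed in untreated cells (22.2% with KO above WT and 20.2% below) and 33.9% in treated ones (17.9% upwards). For each of these 4 genes the 2-sided exact permutation p was 0.1 with and without butyrate, as low as this design allows. The replicate block gave 5 called members in untreated cells, with NECTIN2 higher and ULBP2 lower in addition. In treated cells it gave 6, with ULBP1 and ULBP2 lower in addition (-1.53 and -1.68, edgeR adjusted p 0.0308 and 0.047). The block also called more of all 15805 genes, 2670 higher and 2547 lower in untreated cells, against 1856 and 1718 without it. In treated cells these counts were 2462 and 2150, against 1604 and 1405.

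PVR was the only member that edgeR called higher with butyrate in KO cells when all libraries entered the fit. It went from 23.6, 33.1 and 29 CPM to 143, 91.7 and 44.7 CPM, so every treated library was above every untreated one. The rise was 3.26-fold (log2 fold change 1.71, SE 0.39, edgeR adjusted p 0.0357). It was largest in replicate 1, with within-number differences of 2.60, 1.47 and 0.62 for replicates 1, 2 and 3. Without the 4 libraries numbered 1 the log2 fold change was 1.12 and the edgeR adjusted p 0.055, and MICA and MICB were called instead of PVR. The call was also lost without replicate 1, 2 or 3 of untreated KO (1.58, 1.83 and 1.73, adjusted p 0.135, 0.135 and 0.0943) and on leaving out replicate 1 or 2 of treated KO (1.25 and 1.72, adjusted p 0.0719 and 0.126). Leaving out replicate 3 of untreated WT or replicate 2 of treated WT, which enter only the shared spread, gave 1.71 and 1.70 with edgeR adjusted p 0.0539 and 0.0549.

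In WT cells PVR was also higher with butyrate in every library, at 31.4, 26.4 and 22.3 CPM against 7.15, 16.9 and 9.98 CPM. The 2.35-fold difference (log2 1.23, SE 0.39, 95% interval 0.38 to 2.08) had an edgeR adjusted p of 0.125, 0.0498 with the replicate block and 0.0363 in DESeq2. Without the libraries numbered 1 it was 0.85 on the log2 scale (edgeR adjusted p 0.141). The butyrate effect of KO minus that of WT was 0.47 (-0.71 to 1.66, edgeR adjusted p 1), so no difference in response between genotypes was shown.

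MICA and MICB were above the untreated level in every butyrate-treated KO library, but neither difference passed the threshold. The MICA difference was 0.65 (SE 0.21, 95% interval 0.19 to 1.11, edgeR adjusted p 0.118), against 0.0298 in DESeq2 and 0.0593 with the replicate block. The MICB difference was 0.68 (SE 0.30, 0.03 to 1.34, edgeR adjusted p 0.234). Without the libraries numbered 1, MICA differed by 0.89 and MICB by 0.78 (edgeR adjusted p 0.0123 and 0.0469). In WT cells the groups overlapped, and the differences were 0.42 for MICA (-0.04 to 0.88, edgeR adjusted p 0.327) and 0.54 for MICB (-0.12 to 1.20, adjusted p 0.383).

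ULBP1 had a negative butyrate difference in both genotypes. In KO cells it went from 4.07, 13.3 and 4.95 CPM to 0.826, 1.49 and 4.48 CPM, a log2 difference of -1.70 (95% interval -3.14 to -0.27, edgeR adjusted p 0.174). With the replicate block the difference was -1.73 and the edgeR adjusted p 0.0412. Within replicate numbers it was -2.19, -3.09 and -0.14 in KO and -0.45, -1.09 and -0.44 in WT, so all 6 pairs were lower with butyrate, replicate 3 of KO only slightly. The WT difference was -0.75 (-2.14 to 0.65, edgeR adjusted p 0.601). ULBP2 differed the other way, by 1.36 in WT and 1.88 in KO (edgeR adjusted p 0.542 and 0.377), with a higher value in 5 of 6 pairs.

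NCR3LG1 differed with butyrate in opposite directions in different replicates. Within replicate 1 it was higher with butyrate by 1.21 in WT and 0.58 in KO on the log2 scale. Within replicates 2 and 3 it was lower, by -0.70 and -1.49 in WT and by -0.63 and -1.13 in KO. The fitted differences of 0.06 in WT and -0.28 in KO (edgeR adjusted p 0.98 and 0.847) average over these directions. Without the libraries numbered 1, which stood apart among treated samples, NCR3LG1 differed by -1.14 in WT and -0.78 in KO (edgeR adjusted p 0.153 and 0.297). NECTIN2 differed by -0.06 in WT (95% interval -0.65 to 0.53, edgeR adjusted p 0.941) and by 0.37 in KO (-0.22 to 0.96, adjusted p 0.492), with overlapping groups.

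**Figure D3:**
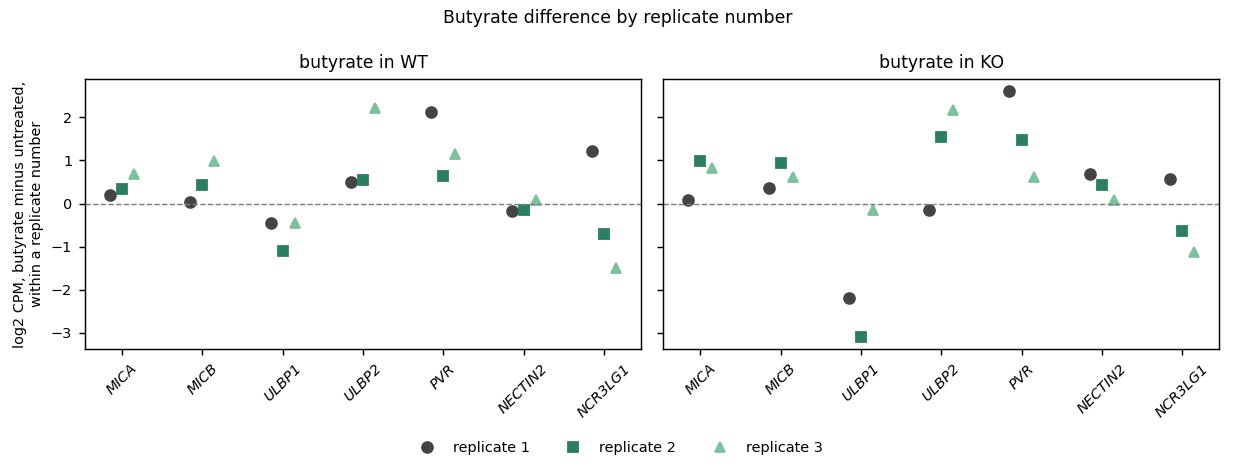
Difference in log2 CPM (vertical axis), butyrate minus untreated, between libraries with the same replicate number, for the 7 tested members (horizontal axis) in WT (left) and KO (right); each symbol is 1 pair. PVR lies above 0 and ULBP1 below 0 in all 6 pairs, and NCR3LG1 lies above 0 in replicate 1 and below 0 in replicates 2 and 3 of both genotypes.

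In WT cells edgeR called 0 of 7 members with butyrate, where 2.35% of all tested genes were called, 1.8% higher and 0.55% lower. 1 member, PVR, had an unadjusted p under 0.05 in edgeR, as did 2849 of the 15805 tested genes. DESeq2 called 1 member and 1331 of all genes. In KO cells 1 of 7 was called, where 3.4% of all genes were, 2.8% higher and 0.595% lower. The block and DESeq2 each called 2 there, PVR with ULBP1 and PVR with MICA, and 1852 and 1538 of all genes. Members' median log2 differences were 0.42 in WT and 0.65 in KO, against 0.02 and 0 over all genes. PVR in both genotypes and MICA and MICB in KO did not overlap between treatments, a separation that 21.7% of all genes showed in WT and 24.4% in KO. The interaction was called for 0 of 7 members by edgeR and by DESeq2, with 0 at an unadjusted p under 0.05, and for 0% of all genes by edgeR, with 658 genes at an unadjusted p under 0.05 and 81 called by DESeq2. Each group enters a genotype and a butyrate contrast, so these 4 contrasts are not independent of each other.

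Genes near the members were described next. Within 1 Mb of MICA, 96 other tested genes lay by RefSeq position, of which 13 rose (13.5%) and 9 fell (9.38%) in untreated KO cells, close to the 11.7% and 10.9% of all tested genes. In treated cells 16 rose (16.7%) and 6 fell (6.25%), against 10.1% and 8.89% of all genes, a difference that was not tested. The nearest tested genes on one side were MICA-AS1, an antisense transcript (0.68, edgeR adjusted p 0.188), HLA-B (4.90, adjusted p 0.00219) and HLA-C, which was at 0 counts in untreated WT and at least 456-fold higher in untreated KO. On the other side lay the long non-coding RNAs HCP5, at least 3.54-fold higher, and MICB-DT (3.00, edgeR adjusted p 0.0183), and MICB. HCP5 shares 2.6% of the exon length of MICA on the same strand, and CEACAM19 shares 3.44% of that of PVR on the same strand. CEACAM19 differed by 2.34 with butyrate in KO and by 2.29 between treated genotypes, KO against WT (edgeR adjusted p 0.119 and 0.0554). The use of strand in counting is not given in the sources used here, so reads of overlapping and antisense genes cannot be told apart. Near PVR and NECTIN2, the adhesion gene BCAM (2.49, edgeR adjusted p 0.00161) and the apolipoprotein genes APOE (1.99, adjusted p 0.00151) and APOC1 (1.74, adjusted p 0.0021) rose in untreated KO cells. TOMM40, between NECTIN2 and APOE, differed by 0.16 (adjusted p 0.868), and ZNF180, CEACAM22P, IGSF23, CEACAM19 and BCL3 were not called there either. Within 1 Mb of PVR, 9 of 53 other tested genes rose (17.0%) and 2 fell (3.77%) in untreated KO cells. Over all genes these shares were 11.7% and 10.9%, and the difference was not tested. CEACAM22P was higher with butyrate in WT and KO (6.57 and 6.33, edgeR adjusted p 0.00721 and 0.00773). Near the ULBP cluster, PPP1R14C, which encodes a phosphatase inhibitor, was lower in untreated KO cells by -5.88 (edgeR adjusted p 3.52e-05).

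**Figure D4:**
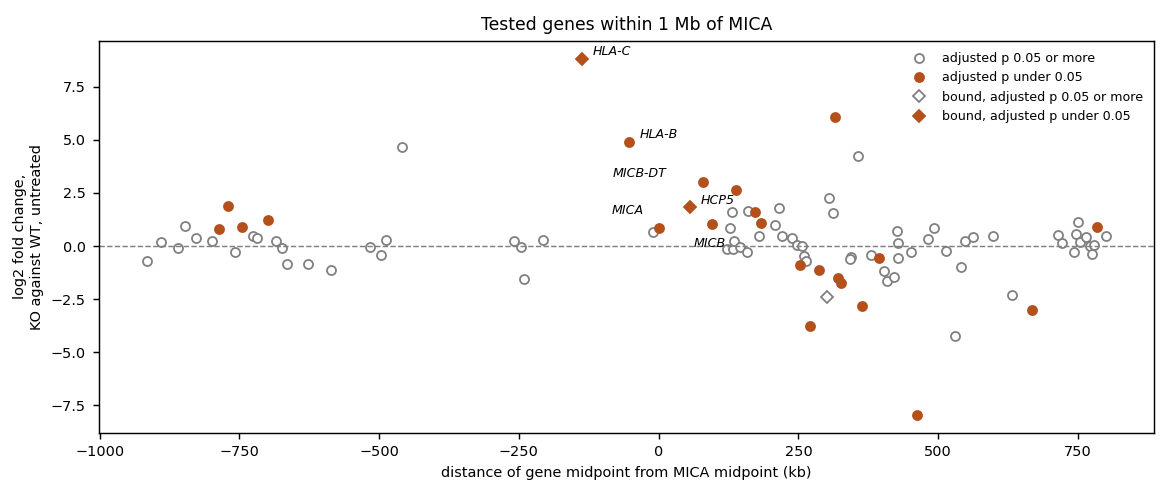
Log2 fold change in untreated cells, KO against WT (vertical axis), of each tested gene within 1 Mb of MICA by distance of its midpoint (horizontal axis, kb); diamonds are bounds where the lower group held at most 3 counts per library. MICA and MICB lie among higher genes that include HLA-B, HLA-C, HCP5 and MICB-DT, with called genes in both directions further right.

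Receptors of the ligands were themselves present in the count table at low to moderate levels. NCR3, which encodes NKp30, was at 10.4, 8.91 and 6.45 CPM in WT and 14.3, 20.1 and 20.6 CPM in KO without butyrate, and at 30.1, 48.5 and 19.7 CPM in WT and 77.2, 166 and 87.9 CPM in KO with it. It rose with butyrate in both genotypes, by 1.93 in WT (edgeR adjusted p 0.0222) and by 2.59 in KO (adjusted p 0.00538), with no called interaction (0.65, adjusted p 1). It was higher in untreated KO by 1.10 (edgeR adjusted p 0.0468) and higher in treated KO than in treated WT by 1.75 (adjusted p 0.00509). The butyrate call in KO and the genotype call in treated cells were kept without any 1 library. The butyrate call in WT was lost without any 1 untreated WT library or replicate 2 of treated WT (highest adjusted p 0.0956). With only the WT groups in the fit its edgeR adjusted p was 0.079. The untreated genotype call was lost without any 1 untreated library or replicate 3 of treated KO (highest 0.174). Scaling by RLE size factors or by library size alone also lost that call (edgeR adjusted p 0.0545 and 0.0633). So did a filter of at least 10 counts in every library (0.0566). CD226, which encodes DNAM-1, rose from at most 4.57 CPM in untreated WT to 40.8, 42.1 and 35.5 CPM in untreated KO (log2 4.18, edgeR adjusted p 3e-04). In treated cells it was at 4.25, 2.6 and 3.81 CPM in WT and 26.9, 21.5 and 12.2 CPM in KO (2.51, edgeR adjusted p 0.00691). NCR1, which encodes another activating NK receptor, was higher in untreated KO by 2.92 (edgeR adjusted p 0.00891). In treated KO it was higher by 2.52 (adjusted p 0.0207), a call lost without replicate 2 or 3 of treated WT or replicate 1 of treated KO (0.0819, 0.0753 and 0.102). With only the treated groups in the fit the edgeR adjusted p of NCR1 was 0.065. KLRK1, which encodes NKG2D, had at most 3 counts in any library.

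**Figure D5:**
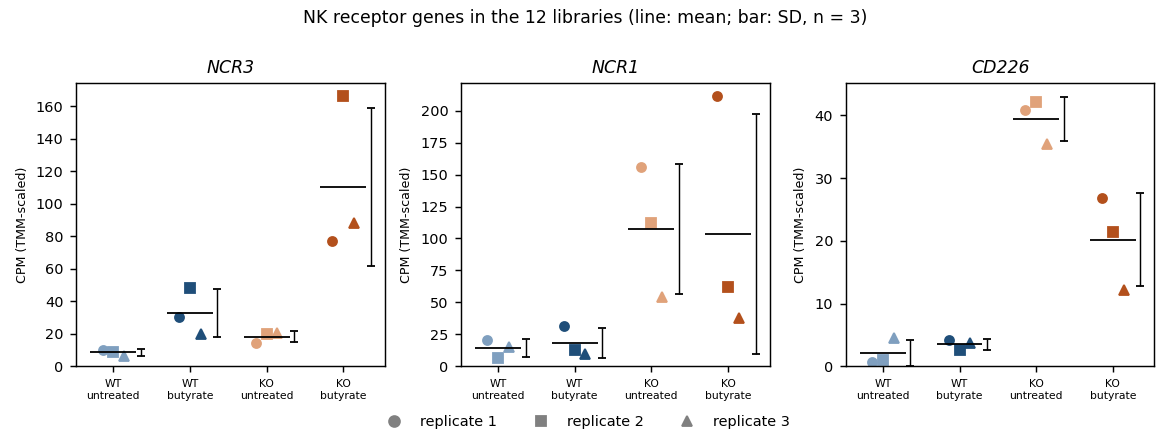
Level (vertical axis, TMM-scaled CPM, linear scale per gene) of 3 genes for NK receptors in the 4 groups (horizontal axis), with 1 symbol per library, a line at the mean and a bar of 1 SD (n = 3). CD226 lies at 12.2 CPM or more in every KO library and at 4.57 CPM or less in every WT library.

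Whether cells of another type were present was checked with marker lists. Of 14 NK and T cell genes, 3 exceeded 1 CPM in all libraries of untreated WT and 4 in those of untreated KO, against 5 and 6 with butyrate. Without butyrate their summed level was 24.8 to 39.6 CPM in WT and 117 to 214 in KO. With butyrate it was 62.5 to 102 and 153 to 323. The sum was thus higher in KO, like MICA, MICB, PVR and NECTIN2 but unlike ULBP1, ULBP2 and NCR3LG1. Its part in any change of the ligand genes was not tested. The receptor genes NCR1, CD226 and NCR3 made up most of it in untreated KO, with means of 107, 39.4 and 18.3 CPM. NKG7 and FCGR3A of this list were not called between genotypes in either setting. NCAM1, the defining CD56 gene of NK cells, was at 0 counts in every library, and GZMB, a granule protease, had at most 4. Other genes of the list were present. PRF1, which encodes perforin, ranged from 6.39 to 8.33 CPM in untreated WT and from 4.15 to 34.7 CPM in treated WT, and from 0.0535 to 3.11 CPM in untreated KO and from 1.65 to 21.6 CPM in treated KO. With the block PRF1 was called lower in untreated KO than in untreated WT (edgeR adjusted p 0.00978) and higher with butyrate in KO (0.031), neither of which passed without it (0.144 and 0.158). CD3E, a T cell receptor subunit gene, had at most 4 counts in a WT library and 1 to 2.52 CPM in untreated KO (log2 4.65, edgeR adjusted p 0.0105), and it was at least 24.1-fold higher in treated KO than in treated WT. Summed B cell and myeloid markers lay between 5.56 and 36.1 CPM over all libraries. Stromal and endothelial markers summed to 2.03 to 16.1 CPM in untreated and 48.7 to 159 CPM in treated libraries. COL1A1 carried most of this rise, with means of 3.05 and 80.8 CPM in untreated and treated WT and of 3.08 and 96.9 CPM in KO. PECAM1 averaged 8.94 and 7.99 CPM in WT and 0.764 and 3.01 CPM in KO, and PDGFRB at most 1.33 CPM. COL3A1 had at most 9 counts in a library and CDH5 had 0 in all.

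Among 18 other genes for activating NK ligands, 13 were tested, and edgeR called 1 higher and 4 lower in untreated KO cells (38.5%, against 22.6% of all genes). CD48, the ligand of the receptor 2B4, was at least 5.55-fold higher in untreated and at least 32-fold higher in treated KO cells. CLEC2B, which encodes AICL, the ligand of NKp80, stood at 4.93, 5.89 and 9.14 CPM in untreated WT and 0.214, 0.143 and 0.167 CPM in untreated KO (log2 -5.22, edgeR adjusted p 0.000655), and fell in treated cells as well (-5.24, adjusted p 0.000846). SLAMF6, a homophilic receptor of the SLAM family, was at least 7.43-fold lower in untreated KO. ICAM3, an integrin ligand, was lower by -1.09 (edgeR adjusted p 0.0187), a call lost without replicate 1 or 3 of untreated WT or replicate 2 of untreated KO (adjusted p 0.0737, 0.0581 and 0.0766). In treated cells 2 were higher (CD48 and ICAM1) and 2 lower (CLEC2B and KMT2E), 30.8% against 19% of all genes. The block added SLAMF6 and ICAM3 as lower (unblocked log2 differences -2.08 and -0.78, blocked edgeR adjusted p 0.0403 and 0.0236). The calls of ICAM1 and KMT2E there were kept in 3 and 2 of 12 fits that each left out 1 library. With butyrate edgeR called 0 of 13 in either genotype, with 2 in WT and 5 in KO at an unadjusted p under 0.05. DESeq2 called 1 and 5, and the block gave 1 lower in WT (ICAM1, adjusted p 0.035) and 4 higher in KO (RAET1G, SLAMF6, CFP and CD48, adjusted p 0.0441, 0.0354, 0.034 and 0.0477). The median was -0.81 in untreated and -0.49 in treated cells for KO against WT, against 0.02 and 0 over all genes.

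Of 17 genes for inhibitory NK ligands, 10 were tested, and edgeR called 2 higher and 0 lower in KO cells in each setting, the class I genes HLA-B and HLA-C. These were 20% of the tested list in either setting, against 22.6% and 19% of all genes. The replicate block added PCNA, whose product is known as a ligand of NKp44 (unblocked log2 difference 0.54 in both settings, blocked adjusted p 0.0279 and 0.0192), and in untreated cells HLA-E as lower (unblocked -0.72, blocked adjusted p 0.0117). HLA-B averaged 4.26 ± 1.45 CPM in treated WT and 65.5 ± 21.8 CPM in treated KO (SD, n = 3 each), a log2 difference of 3.94 (edgeR adjusted p 0.00362). HLA-C had 0 counts in untreated WT and averaged 61.1 ± 38.8 CPM in untreated KO. In treated cells HLA-C averaged 0.921 ± 0.549 CPM in WT and 247 ± 74.3 CPM in KO, a log2 difference of 8.01 (edgeR adjusted p 1.75e-05). With butyrate, HLA-B and HLA-C rose in both genotypes. Calls were 2 of 10 in WT (20%) and 3 of 10 in KO (30%). Over all genes 2.35% and 3.4% were called, and the difference was not tested. CD47, a ligand of the inhibitory receptor SIRPα on macrophages, was called in KO (0.83, edgeR adjusted p 0.0342) and just missed the threshold in WT (0.79, adjusted p 0.0504, 0.0246 with the block), with an interaction of 0.04. The block gave 3 higher in WT and 4 in KO, adding CD47 in WT and HLA-E, a ligand of the inhibitory receptor NKG2A, in KO (1.40, edgeR adjusted p 0.181, 0.00352 with the block). The list's median was 0.49 in untreated and 0.24 in treated cells for KO against WT, and 0.75 in WT and 1.22 in KO for butyrate. All 5 butyrate calls of this list were lost without at least 1 of the 12 libraries, in edgeR fits of KO cells for CD47 (called in 4 of 12, highest adjusted p 0.163), HLA-B (8 of 12, 0.154) and HLA-C (3 of 12, 0.2), and of WT cells for HLA-B (7 of 12, 0.116) and HLA-C (7 of 12, 0.0918).

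Soluble ligand is released from cells by metalloproteases, and 8 of 9 genes for such enzymes, a disulfide isomerase and their inhibitors were tested. In each genotype contrast 1 was higher and 2 lower (37.5%, against 22.6% of all genes in untreated and 19% in treated cells). With the replicate block 2 were higher and 2 lower. The added gene was TIMP2, at least 3.29-fold higher in untreated KO (edgeR adjusted p 0.093, 0.00208 with the block) and higher by 2.03 in treated KO (0.101, 0.000848 with the block). TIMP3, an inhibitor of ADAM and matrix metalloproteases, was at least 8.49-fold lower in untreated and at least 53-fold lower in treated KO cells. TIMP1, another inhibitor, stood at 227, 174 and 216 CPM in untreated WT and at 45.9, 66.5 and 83 CPM in untreated KO. Its log2 difference was -1.66 (edgeR adjusted p 0.0113, 0.0523 without replicate 1 of untreated KO), and in treated cells it was -1.77 (adjusted p 0.00944, 0.053 with only the treated groups in the fit). PDIA6, a disulfide isomerase known to take part in MICA shedding, was the gene called higher (0.82 and 0.88, edgeR adjusted p 0.0234 and 0.0191). Its call was lost without replicate 2 or 3 of untreated WT or replicate 1 or 3 of untreated KO (highest adjusted p 0.0952), and in treated cells without replicate 2 of treated WT or replicate 3 of treated KO (highest 0.0738). The list's median was -0.45 in untreated and -0.10 in treated cells. The proteases ADAM10 and ADAM17 of this list were called in no contrast. ADAM10 averaged 105 and 97.9 CPM in untreated and treated WT and 89.1 and 88.2 CPM in untreated and treated KO. ADAM17 averaged 42.5 and 35.9 CPM in WT and 43.8 and 34.4 CPM in KO, in the same order.

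With butyrate, 1 of these 8 genes rose in WT (12.5%) and 2 in KO (25%), and 0 fell. Over all genes 2.35% were called in WT and 3.4% in KO, and the difference was not tested. TIMP2, an inhibitor of matrix metalloproteases, rose from at most 0.101 CPM to 1.14, 6.27 and 6.67 CPM in WT and from 0.107, 0.38 and 0.836 CPM to 4.18, 29.8 and 23.7 CPM in KO (log2 5.37, edgeR adjusted p 0.0132). In WT this was at least 35-fold. The call was lost in WT without any 1 untreated WT library or replicate 2 of treated WT (highest edgeR adjusted p 0.0877) and in KO without replicate 1 or 2 of untreated KO or replicate 2 of treated KO (highest 0.0916). MMP9, a matrix metalloprotease, rose by 4.18 in KO (edgeR adjusted p 0.0278), from at most 0.214 CPM to 1.06, 4.52 and 2.09 CPM. Its call was lost without any 1 untreated KO library and without replicate 2 or 3 of treated KO (highest adjusted p 0.134).

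Of 17 genes for factors known to regulate NK ligands, all were tested, and 2 were higher and 1 lower in untreated KO cells (17.6%, below the 22.6% of all genes). In treated cells 1 was higher and 1 lower (11.8%, below 19%), so the count says nothing particular of these genes. ATR and ATM, kinases of the DNA damage response through which NKG2D ligands are known to be induced, rose by 1.09 and 0.86 (edgeR adjusted p 0.00117 and 0.00784). In treated cells ATR was higher by 1.10 (adjusted p 0.00137). HDAC3, a histone deacetylase known to repress ULBP genes, was lower by -0.58 and -0.73 (edgeR adjusted p 0.0351 and 0.0133), a call lost in untreated cells without any 1 untreated library (adjusted p up to 0.109) and in treated cells without replicate 2 of treated WT or replicate 1 of treated KO (0.0614 and 0.0552). ATF4, a stress-response factor known to act on ULBP1, was at 386, 570 and 475 CPM in untreated WT and 821, 793 and 872 CPM in untreated KO, against 302, 307 and 742 CPM in treated KO. Its differences of 0.80 between untreated genotypes and of -0.88 with butyrate in KO did not pass (edgeR adjusted p 0.109 and 0.165), but both did when blocked (adjusted p 0.0407 and 0.0477). With butyrate edgeR and DESeq2 called 0 of the 17 in either genotype, with 1 in each at an unadjusted p under 0.05, and the block called 1 lower in KO.

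Of 10 genes for death receptors and granule killing, 7 were tested, and edgeR called 0 between genotypes in either setting, with 0 in untreated and 1 in treated cells at an unadjusted p under 0.05, 0 in DESeq2 and 1 higher with the block in treated cells (CFLAR, unblocked log2 difference 0.52, blocked adjusted p 0.0315). BID, a mediator of granzyme and death-receptor signals, was lower with butyrate in WT (-0.88, edgeR adjusted p 0.0361), a call kept in 5 of the 12 fits that each left out 1 library (highest adjusted p 0.139). The list's median differences for KO against WT were -0.25 in untreated and -0.07 in treated cells.

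For each tested member, the genes with the most similar profile over the 12 libraries were found by the root mean square difference of centred log2 CPM. MICA was closest to STIMATE (0.189) and ABHD6 (0.194), MICB to PAPSS1 (0.192) and ITPR2 (0.198), and NECTIN2 to RNF19B (0.23) and YEATS2 (0.231). ULBP1 was closest to LOC101929140 (0.428) and to CARS1 (0.458), which encodes cysteinyl-tRNA synthetase. PVR was closest to HOXC13 (0.36) and KBTBD8 (0.391), and ULBP2 to TLCD3B (0.5) and FANK1 (0.576). NCR3LG1 was closest to CREBBP (0.268) and to TAL1 (0.278), which encodes an erythroid transcription factor. No member was among the 2 closest genes of another.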

How the data were processed

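Total RNA of 12 K562 libraries was sequenced, and the authors deposited raw counts per gene symbol. FastQC 0.12.1, STAR 2.7.11b and hg38 are named per the submitters' processing notes, whereas the counting tool, annotation, use of strand and filters are not given in the sources used here. Columns were matched to samples by library name, and groups and replicate numbers come from the titles. Compared gene by gene, the most similar replicates still differed by a chi-square of 31.6 for each degree of freedom, so no library was present in duplicate.

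The deposited counts entered edgeR 4.0.16 (R 4.3.3) unchanged: filterByExpr with a minimum count of 10, TMM scaling, and the quasi-likelihood F-test with a mean per group over all 12 libraries (biological coefficient of variation 0.384). Each of 5 contrasts had its p-values adjusted over 15805 genes (Benjamini-Hochberg, threshold 0.05), and the script was tested on simulated data. Where all libraries of a group held 3 counts or fewer, a fold is a bound against 3 counts per library. Single genes were also compared by exact permutation of log2 CPM (prior count 2). DESeq2 1.42.0 and other alternatives are treated in the closing section.

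Same-numbered libraries deviated together from their group means, by the data and not by the labels: the correlation of deviations was 0.195 to 0.409, 0.147 to 0.468, 0.21 to 0.361 and 0.315 to 0.595 for the butyrate contrasts in WT and KO and the genotype contrasts in untreated and treated cells. Pairs of different number reached 0.186, 0.123, 0.0692 and 0.343. A fit with the replicate number as a block is therefore given where it changes a call.

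Named are all members, up to 4 called genes per list and contrast (a gene of the inhibitory list is not reported here), genes of the most similar profile, up to 3 tested neighbours on each side, and marker genes. NK receptor genes are named from the marker list, and genes that only the block called (such as PCNA, HLA-E, CFP, RAET1G and CFLAR) were named after their values were seen. So were ADAM10 and ADAM17, which were not called. Members and lists were chosen with earlier results of these data known.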

Additional observations from a re-analysis of the deposited data

How the results depend on the processing

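The fits with another scaling, filter, test, design or set of libraries changed no direction of MICA, ULBP1 or PVR in any contrast. With the replicate block, called members numbered 1 for butyrate in WT, 2 for butyrate in KO, and 5 and 6 for KO against WT in untreated and treated cells (3 and 4 without it), and the block changed no other member's call than those given beside PVR, ULBP1, ULBP2 and NECTIN2. DESeq2 called 1 and 2 members for butyrate in WT and KO. Without the libraries numbered 1, 2 members were called for butyrate in KO (MICA and MICB, but not PVR) and 5 between untreated genotypes. Leaving out 1 library at a time gave 0 to 1 called members for butyrate in KO, 3 to 5 between treated genotypes and 0 to 4 between untreated ones.

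Over all genes, 372 were called for butyrate in WT, against 1331 in DESeq2, 1361 with the replicate block, 63 with only the groups of the contrast, 1884 without the libraries numbered 1 and 43 to 1243 without single libraries. For butyrate in KO, 537 compared with 304 under a filter of at least 10 counts in every library, 1538 in DESeq2, 1852 with the block, 2164 without the libraries numbered 1 and 48 to 1039 without single libraries. Called genes were 76.6% and 82.5% higher in these contrasts, and 63.5% and 66.5% with the block. Between untreated genotypes 3574 compared with 2334 under the stricter filter and 2485 to 4318 without single libraries. Between treated genotypes 3009 compared with 1947 under that filter, 4612 with the block, 1802 with only the groups of the contrast and 2014 to 3477 without single libraries. The interaction gave 0, against 2 with no filter, 1 with the stricter filter, 81 in DESeq2, 3 with the block, 9 without the libraries numbered 1 and 0 to 2 without single libraries. Fewer genes or samples enter the stricter filter and the smaller fits, and the cause of the other shifts was not tested.

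Differences near 0 changed sign. NCR3LG1 with butyrate in WT was -0.06 with library size alone, -0.29 with the block and -1.14 without the libraries numbered 1. Between treated genotypes it was 0.08 with library size alone and 0.64 without the libraries numbered 1, and in the interaction 0.36 without them. NECTIN2 with butyrate in WT was 0 under the stricter filter. Without single libraries NCR3LG1 ranged from -1.10 to 0.42 and -0.63 to 0.15 for butyrate in WT and KO, from -0.24 to 0.37 and -0.51 to 1.01 between untreated and treated genotypes, and from -0.69 to 0.83 in the interaction. NECTIN2 ranged from -0.27 to 0.11 for butyrate in WT, and the interactions of MICB and ULBP2 from -0.12 to 0.35 and -0.33 to 1.28. ULBP2 and ULBP3 are limited by depth. Library size alone moved the median of all genes to 0.12 for butyrate in KO.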
